A study of Mus musculus with 8 samples.

Results

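In Hepa-1c1c7 cells given potassium chromate at 1 µM, 3342 accessible regions off chromosome 15 were listed that no region of the lists for 0.1 or 0.5 µM overlapped. The regions were chosen by their presence in the deposited lists: the regions of the 3 doses were merged wherever they shared at least 1 bp, and merged regions made of 1 µM regions alone were kept. The lists merged into 21051 regions in all and 17890 off chromosome 15, of which the 3342 were 18.7%. They were 24.3% of the 13777 regions of the 1 µM list off chromosome 15, and 15.7% of its covered bases. The same rule gave 2599 regions for 0.1 µM (20.8% of 12518) and 1346 for 0.5 µM (14.3% of 9437), and 718 regions for 1 µM on chromosome 15, which were left out.

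The assay was ATAC-seq, in which the transposase Tn5 cuts and tags DNA that nucleosomes and other proteins leave exposed. Hepa-1c1c7 is an established mouse hepatoma line, and potassium chromate is a source of hexavalent chromium. The 4 groups were cells of this line kept for 72 h with 0 (untreated control), 0.1, 0.5 or 1 µM chromate, with 2 libraries each and 8 in all. The labels do not say if a dose's libraries were grown separately. The 1 µM libraries carry the prefix N503 in their labels where all others carry N502. The labels do not explain this prefix, and prefix and dose cannot be told apart.

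For each treated dose a single list was deposited for its 2 libraries together, and the list's name sets the dose against untreated cells. No value below therefore has a replicate error, and no difference between lists could be set against the spread between libraries. The use made of the control is not stated, so a listed region is not shown to have opened, nor an unlisted one to be closed. The labels name about 75 M read pairs of 100 bp, and the depth that each library reached is unknown, because the files hold regions and no counts. Intervals of shares below are 95% exact binomial (Clopper-Pearson) intervals, and those of differences are 95% normal approximations. Both cover counting error only.

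Accessible DNA in a cell line is found mainly at promoters, where transcription starts, at distal enhancers, and at sites held open by the insulator protein CTCF. Promoters of widely expressed genes are usually rich in CpG and carry GC boxes, CCAAT boxes and ETS words, and tend to be open in many cell types. Distal sites vary more between cell states. Hexavalent chromium is taken up through anion transporters and reduced inside the cell, which leaves DNA adducts, cross-links and oxidised bases. The title of the series names CTCF sites in promoters as its subject.

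The promoters that carried the highest-scoring of these regions are shown first, since they let the regions be read as sequence. Each line gives the 300-base window that runs from 250 bases before to 50 after an annotated start, from RefSeq (GRCm38.p6, the assembly of mm10), 5′ to 3′ on the strand of the gene. The score is a whole number deposited with each region whose scale is not stated. Sesn3 is shown because its region had the highest score of all. The other promoters were taken in order of score from regions over a start window of a protein-coding gene with no region of another list within 10 kb. Mmab also met this rule; its window overlaps that of Mvk on the other strand and is not printed. The limit to protein-coding genes and to 1 window a gene, the addition of Sesn3 and the omission of Mmab were decided after the values were seen. Capitals mark words matched on either strand. The CTCF core was searched first as AGGGGGC, then in another form as AGGTGGC, and lastly in the form AGATGGC, all being parts of its consensus. The GC box, bound by SP and KLF factors, was searched as GGGCGG and the CCAAT box, bound by NF-Y, under its own letters. The antioxidant response element, bound by NRF2 with small MAF proteins, was searched as TGACNNNGC. Adjoining words run together. Words for AP-1, CRE, ETS, NRF1, YY1 and TATA would have been capitalised too and have no match in these windows.
Sesn3, chr9:14276051-14276350, plus strand: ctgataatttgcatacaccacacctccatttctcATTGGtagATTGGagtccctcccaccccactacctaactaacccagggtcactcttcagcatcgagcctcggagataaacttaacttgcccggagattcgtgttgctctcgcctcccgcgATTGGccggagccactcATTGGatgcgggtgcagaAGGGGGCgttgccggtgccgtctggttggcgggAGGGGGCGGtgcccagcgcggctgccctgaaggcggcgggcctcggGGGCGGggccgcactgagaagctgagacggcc
Rps13, chr7:116334141-116334440, minus strand: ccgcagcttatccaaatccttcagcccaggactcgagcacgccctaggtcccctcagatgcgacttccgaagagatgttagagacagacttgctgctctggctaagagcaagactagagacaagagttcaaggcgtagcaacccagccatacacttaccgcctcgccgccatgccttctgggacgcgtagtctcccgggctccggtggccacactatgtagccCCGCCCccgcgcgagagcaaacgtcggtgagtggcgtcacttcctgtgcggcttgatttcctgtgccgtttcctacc
Trib2, chr12:15816736-15817035, minus strand: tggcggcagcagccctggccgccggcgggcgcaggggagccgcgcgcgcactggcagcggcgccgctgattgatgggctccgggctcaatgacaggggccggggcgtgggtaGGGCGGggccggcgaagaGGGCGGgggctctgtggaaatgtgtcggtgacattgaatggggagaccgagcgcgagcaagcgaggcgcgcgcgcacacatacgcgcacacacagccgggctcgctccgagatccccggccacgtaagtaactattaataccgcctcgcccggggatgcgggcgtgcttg
Aldh18a1, chr19:40588414-40588713, minus strand: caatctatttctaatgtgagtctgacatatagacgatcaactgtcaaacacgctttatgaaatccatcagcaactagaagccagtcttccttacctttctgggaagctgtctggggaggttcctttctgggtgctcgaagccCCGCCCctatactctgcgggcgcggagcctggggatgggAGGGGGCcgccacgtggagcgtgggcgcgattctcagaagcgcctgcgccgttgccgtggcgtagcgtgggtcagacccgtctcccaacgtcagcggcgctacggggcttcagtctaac
Samd4b, chr7:28436142-28436441, minus strand: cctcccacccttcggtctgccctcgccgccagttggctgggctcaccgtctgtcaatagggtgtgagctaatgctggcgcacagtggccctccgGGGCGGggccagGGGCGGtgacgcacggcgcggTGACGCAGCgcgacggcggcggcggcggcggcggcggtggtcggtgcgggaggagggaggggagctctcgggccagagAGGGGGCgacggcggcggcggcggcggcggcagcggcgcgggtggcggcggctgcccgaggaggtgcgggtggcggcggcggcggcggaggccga
Ric1, chr19:29522032-29522331, plus strand: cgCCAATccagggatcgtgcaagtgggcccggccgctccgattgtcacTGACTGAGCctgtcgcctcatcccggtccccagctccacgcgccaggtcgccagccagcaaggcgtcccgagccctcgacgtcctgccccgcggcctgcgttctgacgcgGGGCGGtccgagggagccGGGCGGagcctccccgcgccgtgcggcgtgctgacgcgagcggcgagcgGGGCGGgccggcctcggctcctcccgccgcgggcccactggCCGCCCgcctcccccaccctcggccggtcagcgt
Wdr19, chr5:65199446-65199745, plus strand: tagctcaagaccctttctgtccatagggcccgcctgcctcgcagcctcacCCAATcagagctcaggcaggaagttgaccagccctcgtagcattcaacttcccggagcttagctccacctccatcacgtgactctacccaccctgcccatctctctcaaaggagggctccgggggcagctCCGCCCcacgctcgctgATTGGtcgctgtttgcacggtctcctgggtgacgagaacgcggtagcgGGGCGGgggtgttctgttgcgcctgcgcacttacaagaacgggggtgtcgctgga
Mvk, chr5:114444019-114444318, plus strand: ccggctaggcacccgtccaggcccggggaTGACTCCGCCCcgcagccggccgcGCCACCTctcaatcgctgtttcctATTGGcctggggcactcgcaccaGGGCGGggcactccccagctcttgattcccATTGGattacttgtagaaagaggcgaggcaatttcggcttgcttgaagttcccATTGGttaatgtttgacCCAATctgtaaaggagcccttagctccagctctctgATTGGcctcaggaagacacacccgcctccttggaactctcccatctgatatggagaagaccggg

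The windows differed in what they held. Sesn3, a stress-inducible sestrin that restrains mTORC1 signalling, had 2 CTCF core words, 2 GC boxes and 4 CCAAT boxes. Mvk, mevalonate kinase of the cholesterol pathway, had 5 CCAAT boxes, 2 GC boxes and 1 CTCF core word of the AGGTGGC form. Mmab, which adenosylates cobalamin, is read from the opposite strand of the same 275 bp region. Aldh18a1, an enzyme of proline synthesis, and Samd4b, an RNA-binding protein, each had 1 AGGGGGC word. Rps13, a protein of the small ribosomal subunit, Trib2, a pseudokinase, Ric1, a partner in the activation of RAB6, and Wdr19, a component of intraflagellar transport, had no CTCF core word in these windows. All 8 windows printed had at least 1 GC box. A match is a description of the letters and not a bound site.

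By score, the regions listed only at 1 µM came mostly from the lower part of their list. Score and width belong to the comparison that chose them and are given as a description without a test. Their median score was 9 (quartiles 6 and 11, highest 41), against 22 for the 6520 1 µM regions that belonged to merged regions listed at all 3 doses. The median rank by score within the 1 µM list was the 30.2nd percentile, against the 73.9th. Of all 1 µM regions with a score of 4 or 5, 52.5% (699 of 1331) were listed at no other dose. That share was 43.2% at scores 6 to 9, 28.7% at 10 to 14, 14.8% at 15 to 19 and 3.61% at 20 to 29, and 3 of 2361 regions (0.127%) with a score of 30 or more were so. Regions listed only at 0.1 or only at 0.5 µM had a median score of 7 in their own lists.

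**Figure D1:**
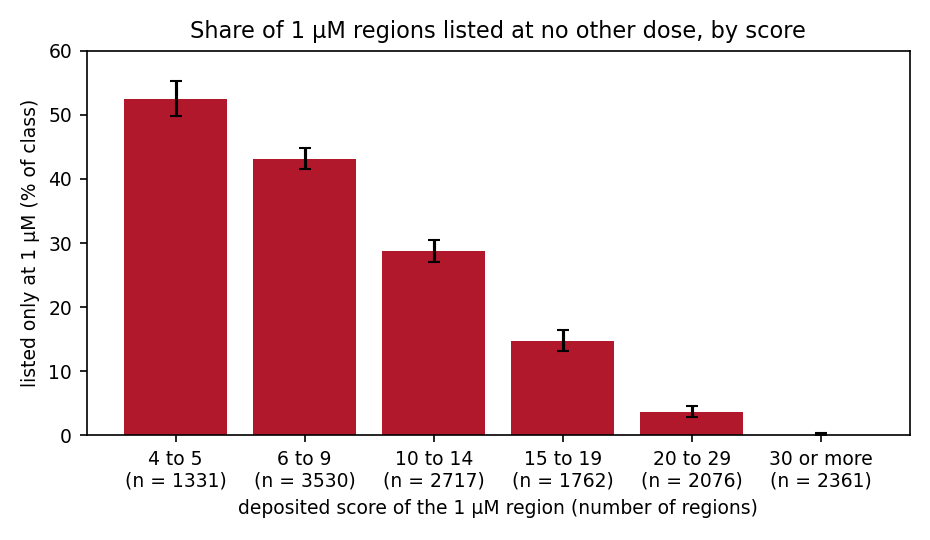
Share of the 1 µM regions off chromosome 15 that were listed at no other dose (vertical axis, %), by class of deposited score (horizontal axis, with the number of regions). Error bars are 95% exact binomial intervals; the share falls from 52.5% at scores 4 and 5 to 0.127% at 30 or more.

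They were also narrow beside 1 µM regions listed at all doses, with a median width of 254 bp against 487 bp. Regions listed only at 0.1 or only at 0.5 µM were narrower still, with medians of 240 and 239 bp. At the smallest width found in any list, 199 bp, stood 411 (12.3%) of those listed only at 1 µM, against 19.5% and 19.1% at 0.1 and 0.5 µM alone. Of the regions listed only at 1 µM, 85 (2.54%) reached 500 bp, against 1.19% and 1.63%. Width and score were loosely tied: the 1579 regions under 250 bp had a median score of 7, and the 85 of 500 bp or more had a median of 9 with a range of 4 to 26.

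The regions named for score lay at promoters, inside genes and between genes. There were 9 with a score above 25 and 5 with a score of 25, of which the widest, inside Kif21b, is named. The region of the Sesn3 start, chr9:14275926-14276315, had a score of 41 and lay 609 bp from a region listed at 0.5 and 1 µM. A region at chr8:60809833-60810196 with a score of 34 lay between genes, 80.4 kb from the nearest, Hpf1, which directs PARP enzymes to serine. A region inside Dnah7b, an axonemal dynein heavy chain, had a score of 30. The starts of Rps13 (score 29) and Trib2 (score 28) followed, both over 30 kb from any region of another list. Inside genes were the regions of Sgo2a, a protector of centromeric cohesin (26), Itgav, integrin alpha V (26), Crim1, which binds bone morphogenetic proteins (26), Mical3, an actin-oxidising enzyme (26), and Kif21b, a kinesin (25). The gene table gives no exons, so exon and intron are not told apart here.

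The widest of them was low in score. It covered 1281 bp inside Ddx5, an RNA helicase, at chr11:106782419-106783699, with a score of 5, while regions listed at all doses stood at both ends of the same gene. It held the whole hairpin of Mir3064 (chr11:106782693-106782759, minus strand), and the mature forms from RefSeq are shown with the seed, bases 2 to 8, in capitals. The 5p and 3p seeds differ.
mmu-miR-3064-5p: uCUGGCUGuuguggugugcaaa
mmu-miR-3064-3p: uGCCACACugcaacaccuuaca

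The other wide regions had scores of 8 to 20. A region of 802 bp covered the start of the histone gene H2bc6 beside H1f4, a linker histone gene, with a score of 11 and no region of another list within 62.2 kb. Zfp12, a zinc finger gene, had a region of 809 bp over its start with a score of 15 and no other list's region within 79.4 kb. Regions inside Anxa1 (721 bp), Stard13 (732 bp), Nckap5 (771 bp) and Rin2 (834 bp), and one of 851 bp at 5.14 kb from Eef1g, lay 237 to 808 bp from a region of another list. Those inside Dnaic2 (764 bp) and Mettl21a (684 bp) lay 49.0 and 15.1 kb from one.

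Most of these regions lay away from the regions of the other lists. The median gap to the nearest region of either other list was 18.1 kb. Of the 3342, 2010 (60.1%) lay over 10 kb from any such region, 581 (17.4%) within 1 kb and 100 within 100 bp. Within 100 kb of one lay 2746 (82.2%). This gap does not count the 1 µM list itself, of which another region lay within 1 kb of 527 (15.8%). Of the 581, 272 (46.8%) had a region listed at all doses within 1 kb. Regions listed only at 0.1 µM lay over 10 kb away in 64.2% and those listed only at 0.5 µM in 56.2%. At the edge of the rule, 13 regions 0 to 10 bp from another list had scores of 4 to 15 (median 7), and 16 regions of the 1 µM list left out for an overlap of 1 to 10 bp had scores of 4 to 14 (median 5).

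Position relative to genes was not used by the rule and was tested. A region was put at a gene end when its midpoint lay no more than 1 kb from a protein-coding gene's start or end, otherwise inside a gene or between genes. The tests were 9 two-sided Fisher's exact tests with Benjamini-Hochberg adjustment. They compare lists of regions, and neighbouring regions are not independent, so the p-values describe these lists and not the doses.

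Of the regions listed only at 1 µM, 813 (24.3%, interval 22.9 to 25.8) lay at a gene end, 1235 (37.0%) inside a gene and 1294 (38.7%) between genes. Gene ends took 17.2% of the regions listed only at 0.1 µM, a difference of 7.17 percentage points (interval 5.11 to 9.22, adjusted exact p = 3.01e-11). They took 28.8% of those listed only at 0.5 µM, above the share at 1 µM alone (difference -4.43 points, interval -7.25 to -1.60, adjusted exact p = 0.00283). The share at gene ends thus did not follow the order of the doses. Against 1 µM regions listed at all doses, at 39.3%, the difference was -15.0 points (adjusted exact p = 2.14e-50).

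Width moved with the last of these comparisons. Among regions under 250 bp the difference from those listed at all doses was -4.06 points (adjusted exact p = 0.28), among regions of 250 to under 500 bp it was -3.61 points (adjusted exact p = 0.0172), and at 500 bp or more it was -18.7 points (adjusted exact p = 0.005). The difference from the regions of 0.5 µM alone was -2.97 points under 250 bp (adjusted exact p = 0.28), -6.39 points at 250 to under 500 bp (adjusted exact p = 0.0115) and -17.1 points at 500 bp or more (adjusted exact p = 0.389). With genes of every type it was -3.13 points (adjusted exact p = 0.0563). The difference from the regions of 0.1 µM alone was 7.41 and 6.47 points in the narrower width classes and passed the threshold in both; at 500 bp or more it was 3.91 points (adjusted exact p = 0.823).

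Away from gene ends, the regions listed only at 1 µM lay between genes less often than those listed only at 0.1 µM (difference -9.22 points, adjusted exact p = 3.36e-12). They lay there more often than those listed at all doses (6.89 points, adjusted exact p = 2.35e-11), and also more often inside genes (8.10 points, adjusted exact p = 1.9e-15). Neither of these differences from regions listed at all doses passed the threshold within the 2 narrower width classes. Against regions listed only at 0.5 µM the differences were 2.39 points between genes (interval -0.665 to 5.44, adjusted exact p = 0.151) and 2.04 points inside genes (interval -0.991 to 5.06, adjusted exact p = 0.191). Against 0.1 µM alone the difference inside genes was 2.06 points (interval -0.401 to 4.51, adjusted exact p = 0.132).

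**Figure D2:**
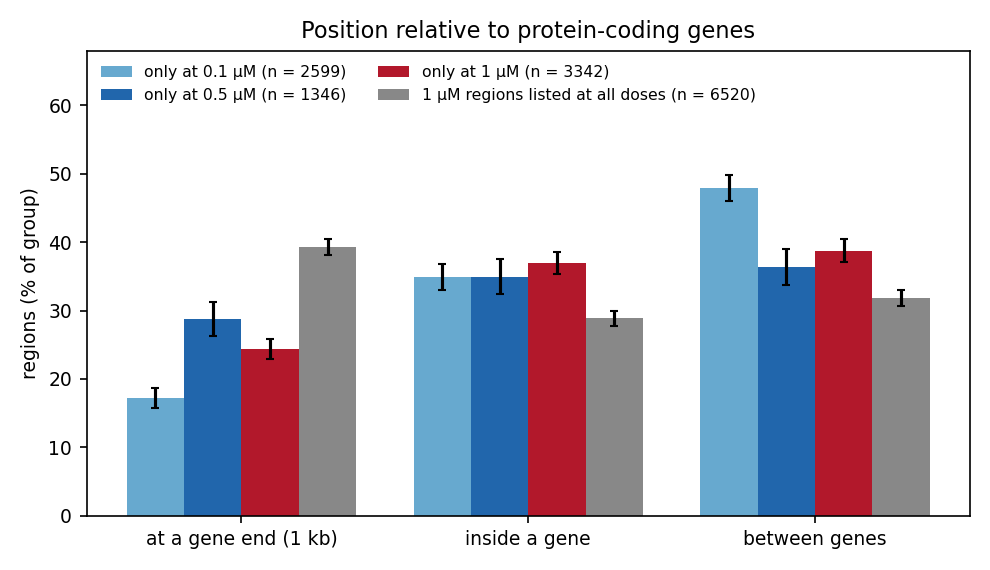
Share of regions (vertical axis, %) at a gene end, inside a gene or between genes (horizontal axis) for regions listed at a single dose and for 1 µM regions listed at all doses, with the number of regions in the legend. Error bars are 95% exact binomial intervals; at gene ends the bars stand at 17.2% for 0.1 µM, 28.8% for 0.5 µM, 24.3% for 1 µM and 39.3% for all doses.

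The gap to another list and position went together unevenly. Of the 581 regions within 1 kb of another list's region, 35.1% lay at a gene end, against 12.5% of the 751 regions 1 to 10 kb away and 25.6% of the 2010 regions over 10 kb away. The middle class lay inside genes in 41.9% and between genes in 45.5%. The gap is part of the rule, and this split, added after the files were seen, was not tested. Median scores in the classes were 8, 9 and 9, and median widths 255, 260 and 252 bp.

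**Figure D3:**
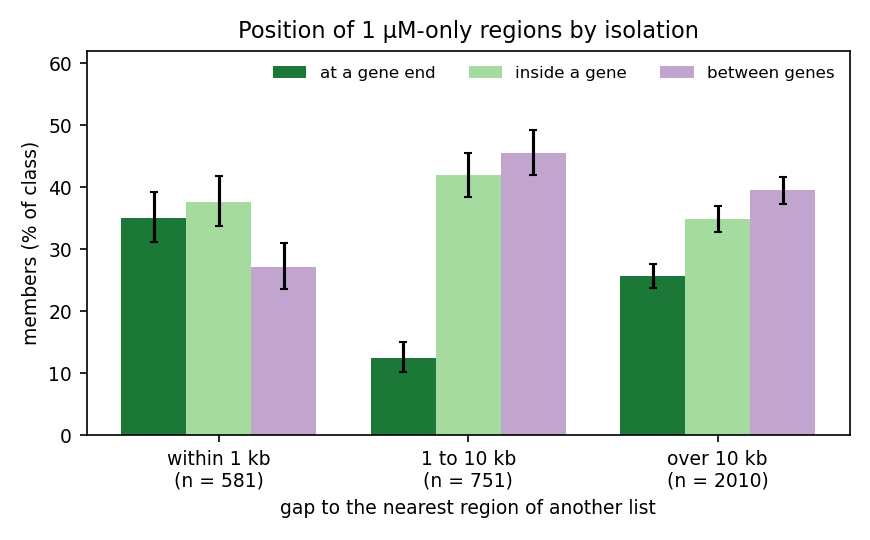
Regions listed only at 1 µM by their gap to the nearest region of another list (horizontal axis, with the number of regions) and the share of each class at a gene end, inside a gene or between genes (vertical axis, %). Error bars are 95% exact binomial intervals; gene ends take 35.1%, 12.5% and 25.6% in order of rising gap.

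The start windows of RefSeq separate promoters from the other ends of genes. They give no window for chromosome 18, so 3166 of the 3342 regions could be placed. These tests were added once the table was known, and neighbouring regions are not independent in them either. Of the 3166, 592 (18.7%, interval 17.4 to 20.1) overlapped a start window, against 11.0% of the regions of 0.1 µM alone (difference 7.69 points, adjusted exact p = 1.09e-15 by Fisher's exact test over 3 comparisons). The share was 20.9% for 0.5 µM alone (difference -2.24 points, adjusted exact p = 0.087) and 37.3% for 1 µM regions listed at all doses (difference -18.6 points, adjusted exact p = 1.26e-78). Under 250 bp that last difference was -3.11 points (adjusted exact p = 0.257) and at 250 to under 500 bp -5.09 points (adjusted exact p = 0.00017), while the difference from 0.1 µM alone was 6.83 and 7.92 points.

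Most of the gene ends were starts. Of 792 regions at a gene end off chromosome 18, 619 (78.2%) were at a 5′ end, 41 (5.18%) at a 3′ end and 29 at both, and for 103 the strand was not known. Around starts, 225 regions had their midpoint in the 100 bases before the start and 115 in the 100 bases after it. Of the 844 regions within 1 kb of a start, 57.7% were upstream and 67.9% within 250 bp; for 1 µM regions listed at all doses these shares were 55.5% and 80.9%. Of the 592 over a start window, 79 (13.3%, interval 10.7 to 16.4) covered windows on both strands, as at Mvk and Mmab. Of the regions listed at all doses 20.1% (interval 18.5 to 21.8) did. The share was 10.2% (interval 6.90 to 14.4) for 0.1 µM alone and 11.4% (interval 7.91 to 15.8) for 0.5 µM alone. These shares were not split by width.

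**Figure D4:**
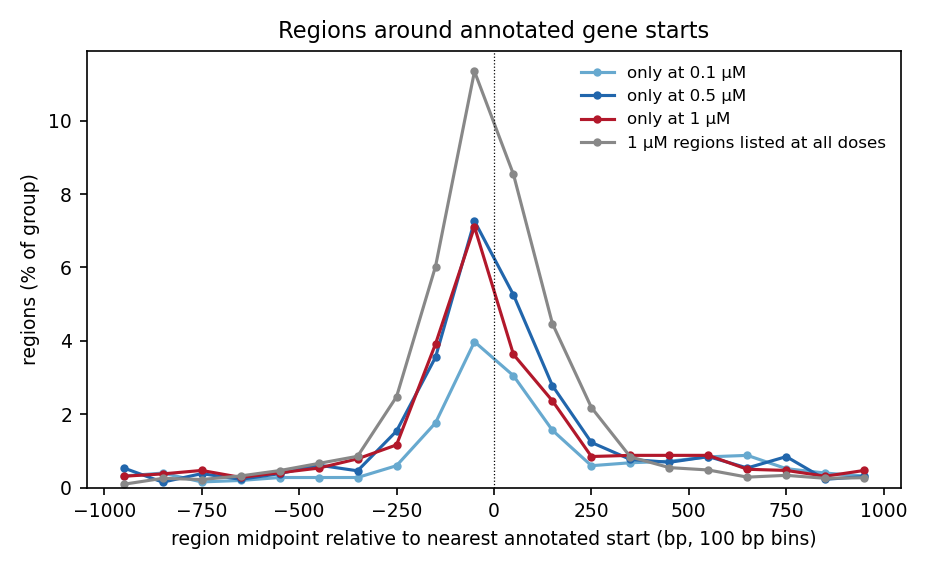
Position of region midpoints relative to the nearest annotated start (horizontal axis, bp, in bins of 100 bp; negative is upstream) as a share of all regions of the group (vertical axis, %). The regions listed only at 1 µM peak in the last 100 bases before the start, at 7.11%, against 11.3% for 1 µM regions listed at all doses.

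The promoters under these regions were of the CpG-rich kind. The 592 regions overlapped 723 start windows, with a median GC content of 61.7% and a median ratio of observed to expected CpG of 0.787. That ratio was at least 0.6 in 76.2% of them (interval 72.9 to 79.3), against 79.2% of the windows under regions listed at all doses, 26.8% of windows under no listed region and 36.1% of every window. Of windows under regions listed only at 0.1 or only at 0.5 µM, 71.7% and 82.5% reached 0.6. Of the 723 windows, 702 were overlapped by no region of another kind, and 75.8% of these reached 0.6.

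In letters, these 723 windows lay near those under regions listed at all doses for some words and near windows at large for others. GC boxes were in 67.4%, against 68.6% and 35.9% of every window, and ETS words (CCGGAAG) in 19.9%, against 22.2% and 8.93%. A CTCF core word of any of the 3 forms was in 25.9% (interval 22.7 to 29.2), against 26.4% under regions listed at all doses, 31.6% under those of 0.1 µM alone, 30.8% under those of 0.5 µM alone and 21.4% of every window. CCAAT boxes were in 38.6% (interval 35.0 to 42.3). That is nearer to the 37.6% of every window than to the 46.9% under regions listed at all doses. Under regions of 0.1 and 0.5 µM alone they were in 35.9% and 47.7%. AP-1 words (TGANTCA) were also nearer to windows at large, in 8.44% (interval 6.52 to 10.7), against 5.46% under regions listed at all doses and 7.86% of every window. TATA boxes (TATAAA) were in 7.05%, against 4.90% and 13.7%, and antioxidant response elements in 15.9%, against 16.6% and 12.4%. The core words of the metal response element (TGCNCNC) and the xenobiotic response element (GCGTG) are short. The first stood in 59.1%, against 58.9% under regions listed at all doses and 51.3% of every window. The second stood in 53.5%, against 55.4% and 32.6%. Under regions of 0.1 and 0.5 µM alone the first was in 59.9% and 62.15%, and the second in 50.5% and 60.9%. Both strands were searched, words may overlap one another, and no test was run.

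Counted by gene, 933 of 20851 protein-coding genes off chromosome 15 (4.47%) had such a region within 1 kb of an end. Any 1 µM region was at an end of 4599 genes (22.1%). For 510 genes (2.45%) the region listed only at 1 µM was also the sole listed region in the gene or within 10 kb of it. Another listed region was at an end of 255 of the 933. Single regions were the rule: 904 genes had 1, 28 had 2, and Egr1 alone had 3.

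Egr1, an immediate early transcription factor gene at chr18:34861207-34864956, therefore had the densest set. Regions listed only at 1 µM stood at chr18:34860669-34861048 (score 5), chr18:34861149-34861487 (score 9), chr18:34863244-34863602 (score 5) and chr18:34863833-34864453 (score 16). The second of them covers the lower-numbered end of the gene. The higher-numbered end was covered by a 1 µM region of score 9 that belonged to a merged region of all 3 doses, and no other listed region lay within 5 kb of the gene. Egr1 was singled out after its values were seen.

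The 22 gene lists held 599 genes off chromosome 15, of which 47 had a region listed only at 1 µM at an end and 21 had no other listed region in the gene or within 10 kb. The counts below are set beside the 4.47% of all genes and were not tested. The number of genes with any 1 µM region at an end, 22.1% over all genes, stands beside each count, since it is higher in many of these lists.

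In the list of CTCF, cohesin and condensin, 5 of 21 genes had such a region, and 14 of 21 had any 1 µM region. They were Stag1, a cohesin subunit (score 5), the condensin genes Ncapd2 (6), Ncapg2 (7) and Ncaph (7), and Yy1, a looping factor (4). None was the sole listed region of its gene within 10 kb. The gaps to another list were 73 bp at Yy1, 114 bp at Ncapd2 and 174 bp at Ncapg2, and 7984 and 9166 bp at Stag1 and Ncaph. All 5 scores were below the median of 9. The region at Ncapd2 overlapped the start window of its neighbour Mrpl51 and not that of Ncapd2.

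In glycolysis and gluconeogenesis, 5 of 27 genes had one, of 9 with any 1 µM region, and for 4 it was the sole listed region. Eno1, enolase, and Pkm, pyruvate kinase, had regions over their starts with a score of 12, at 256932 and 2579918 bp from any region of another list. Pfkl, phosphofructokinase (score 10), and Pfkfb1 (626 bp, score 9) were alone as well. The region at Gapdh (score 7) lay 553 bp from another list's region.

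In cholesterol and fatty acid synthesis, 4 of 23 genes had one, of 11 with any. Mvk had the highest score of all list genes, 20. The region at the 3′ end of Hmgcs1, HMG-CoA synthase, had a score of 16, that at Insig1, which retains the SREBP complex in the endoplasmic reticulum, had 11, and that at Scd1, stearoyl-CoA desaturase, had 9. Mvk and Scd1 had no other listed region within 10 kb.

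Among AP-1 and immediate early genes, 4 of 23 had one, of 13 with any. Beside Egr1 they were Dusp5, an ERK phosphatase (score 16, alone), Ier3 (score 9, 8066 bp from another list) and Atf3, a stress-induced factor. At Atf3 the region (score 8) lay 380 bp from a region over the same gene end that was listed at all doses. That region had scores of 33, 42 and 46 in the lists of 0.1, 0.5 and 1 µM. The scale of the score is not stated, so scores of separate lists do not show a change with dose.

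In DNA replication and cell cycle, 4 of 32 genes had one, of 23 with any. Cdc6 and Cdt1, which load the replicative helicase (score 8 each), and Pole, the leading-strand polymerase (10), were alone, and the region at Rrm2, a subunit of ribonucleotide reductase (8), lay 215 bp from another list's. DNA repair had 2 of 33 (17 with any): Atm, the kinase that answers double-strand breaks, whose region (score 9) also covered the start of its neighbour Npat, and Fanci, of the cross-link repair pathway (4). The p53 targets had 2 of 21 (9 with any): Ei24 (8) and Perp (5). All of these repair and p53 genes had no other listed region within 10 kb.

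Of the NRF2 and antioxidant genes, which answer oxidants, 3 of 29 had one, of 13 with any. Srxn1, sulfiredoxin, had a region over its start (score 12). Sqstm1, the autophagy receptor p62, had 2 regions at its start, at chr11:50210158-50210365 (score 5) and chr11:50210863-50211061 (score 9). Prdx6, a peroxiredoxin, had 1 of score 5. Metal response genes, the metallothionein pathway among them, had none of 18, though 9 had any 1 µM region at an end. Heat shock genes had 2 of 21 (12 with any), Hspa4 (9) and Hsph1 (5).

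The liver and xenobiotic lists gave small counts. Hepatocyte identity had 3 of 35, of 5 with any: Cebpb and Nr5a2, both transcription factors with regions of score 9 over their starts, and Pck1, of gluconeogenesis, with 1 of score 7 at its 3′ end. At Cebpb the region lay 84 bp from a region listed at all doses. In the AHR and xenobiotic list, 2 of 23 had one, of 5 with any, Ugt1a1 and Ugt1a6a. These overlapping glucuronosyltransferase genes share their 3′ end, so the 2 regions there (scores 5 and 9) are counted for both.

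Among housekeeping and structural lists, cytosolic ribosomal proteins had none of 29 (9 with any), and mitotic spindle genes had none of 23 (14 with any). The ribosomal list does not hold every such gene: Rps12 (score 7) and Rps13 (score 29) had regions over their starts and are not in it. The respiratory chain had 2 of 26, Ndufs4 of complex I (score 4) and Atp5b of ATP synthase (score 6), whose region is also the one at Baz2a, and 9 with any. Chromatin remodelling genes had 2 of 31, Baz2a (6) and Chd8 (5), of 16 with any, and histone and DNA modifying enzymes 1 of 45, Kdm5a (7), of 8 with any. The region at Chd8 lay at its 3′ end and overlapped the start window of its neighbour Supt16. Adhesion and cytoskeleton genes had 3 of 31, among them Vcl, vinculin (8), and Ezr, ezrin (7), of 9 with any. The signalling list had 2 of 45, among them Fgfr2, a fibroblast growth factor receptor (5), against 22 with any.

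For markers of other cell types, counts this small cannot be told from the 4.47% of all genes. Immune cell and neuronal markers had none of 21 and none of 22, and none of them had any 1 µM region at an end. Stellate, fibroblast and endothelial markers had 1 of 22, Vim, vimentin (score 4), and 2 with any. Of the 35 hepatocyte identity genes, 5 had any 1 µM region at an end, which is 14.3% beside the 22.1% of all genes.

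**Figure D5:**
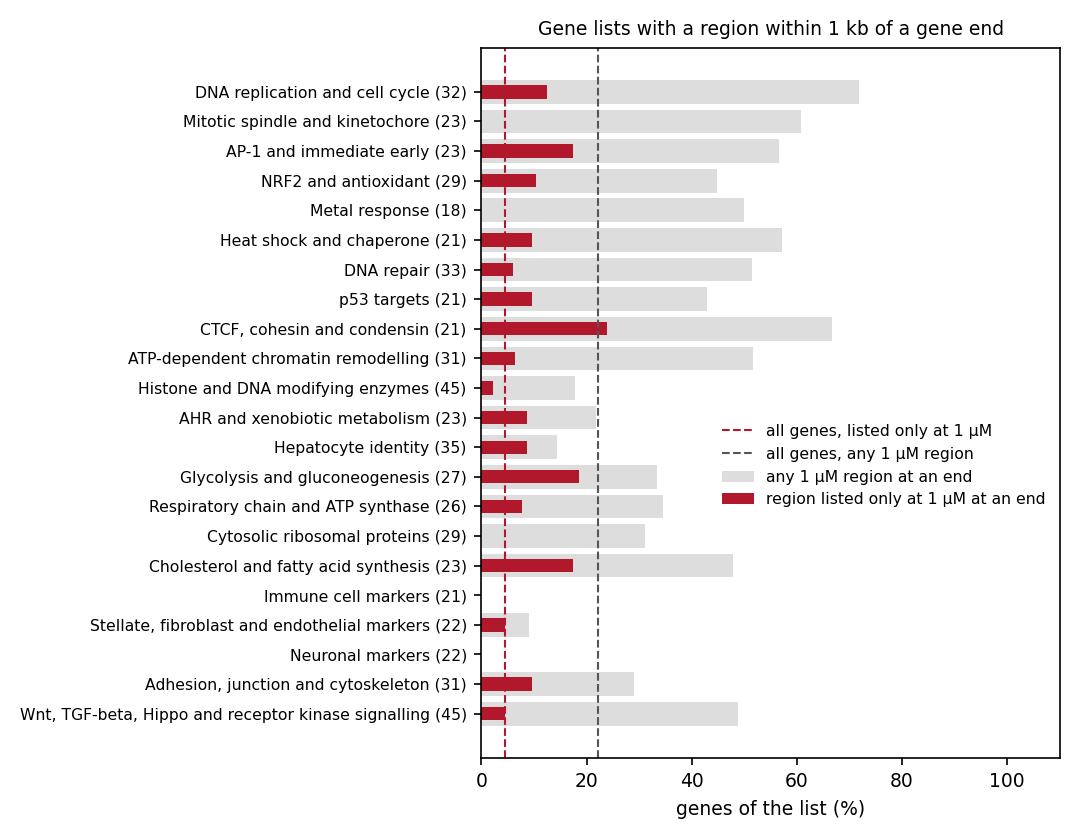
Share of the genes of each list (horizontal axis, %; number of genes tested in parentheses) with a region listed only at 1 µM within 1 kb of an end (red) and with any 1 µM region there (grey). Dashed lines give the same shares over all 20851 genes, 4.47% and 22.1%; no error bars are drawn, and no list was tested.

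Along the genome the regions were spread thinly, with a few dense places. Of the 500 kb windows with at least 1 of them, 1035 of 1845 held a single region and 74 held 5 or more, with 13.7% of the regions. The window chr1:83000001-83500000, with Ccl20, Daw1 and Sphkap, held 19, beside 29 regions listed only at 0.5 µM and 5 only at 0.1 µM. The window around Cebpb, Snai1 and Ptpn1 (chr2:167500001-168000000) held 14, beside 23 only at 0.5 µM. That around Cntn2, Nfasc and Mdm4 (chr1:132500001-133000000) held 13, beside 41, and that around Zfp217 and Cyp24a1 (chr2:170000001-170500000) held 13, beside 8. The Ugt1a window (chr1:88000001-88500000) held 12, beside 2. In the order named, these windows held 40, 47, 23, 37 and 26 regions of the 1 µM list in all. Over that list off chromosome 15, 24.3% of regions were listed at no other dose. Median scores of the regions listed only at 1 µM in these windows were 7 to 10.

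Genes with several regions were mostly long. Rps6ka2, a ribosomal S6 kinase gene of 214 kb, had 11 at or inside it, with scores of 4 to 12, beside 17 listed only at 0.5 µM. Daw1, a dynein assembly factor gene of 50.8 kb, had 8 beside 10, and Arid1b, a subunit of the BAF remodelling complex, had 7 beside 11. Vps13d, a lipid transfer protein gene, had 6 and no region listed only at 0.5 µM. Pde4d, a cAMP phosphodiesterase, Dst, a cytoskeletal linker, and Tns1, a tensin, had 5 each. In the order named, these genes also had 1, 2, 8, 7, 8, 1 and 3 of the 1 µM regions listed at all doses. Pde4d had 9 regions listed only at 0.1 µM, and the others named had 0 to 2. A further 20 genes had 4, among them 9 overlapping Ugt1a genes that share their regions, and Egr1, which spans 3.75 kb.

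By chromosome, the shares were compared in 38 two-sided Fisher's exact tests, 19 chromosomes against each other single-dose group. Neighbouring regions are not independent here either, so these p-values too describe the lists and not the doses. Against 0.1 µM alone, chromosome 10 held more of the 1 µM regions (6.22% against 4.50%, adjusted exact p = 0.0108) and chromosomes 3, 14 and X fewer (7.57% against 9.50%, 2.03% against 3.42%, and 1.53% against 2.77%; adjusted exact p = 0.0198, 0.00338 and 0.00335). Against 0.5 µM alone, 12 chromosomes differed, 8 higher and 4 lower. The lower ones were chromosome 17 (5.89% against 14.6%, adjusted exact p = 4.75e-19), chromosome 2 (9.61% against 16.05%, adjusted exact p = 2.5e-08), chromosome 11 (4.82% against 8.17%, adjusted exact p = 0.000124) and chromosome 1 (11.8% against 15.2%, adjusted exact p = 0.00562). Of 1 µM regions listed at all doses, 6.38%, 9.66%, 3.93% and 14.1% lay on chromosomes 17, 2, 11 and 1. On each of these the share at 1 µM alone was nearer to that value than to the share at 0.5 µM alone. Windows dense in regions of 0.5 µM alone lie on chromosomes 1, 2 and 17; on chromosome 17 those that start at 5000001 and 7000001 held 21 and 17 of them beside 10 and 11 of 1 µM alone. Their part in these differences was not tested. Most of these calls were lost among regions above their group's median score. Against 0.1 µM alone, chromosome 14 kept its call (adjusted exact p = 0.0069), chromosomes 10, 3 and X did not (adjusted exact p = 0.291, 0.245 and 0.296), and chromosome 18 gained one (6.26% against 3.28%, adjusted exact p = 0.00613). Against 0.5 µM alone, 3 chromosomes differed there: 17 and 11, again lower, and 18, which was higher (6.26% against 2.25%, adjusted exact p = 0.00579). At chromosomes 10, 3 and X the differences from 0.1 µM alone were 1.72, -1.93 and -1.24 points over all regions. Above the median score they were 1.49, -1.90 and -0.994 points. The part of the smaller counts in the lost calls was not tested.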

How the data were processed

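ATAC-seq regions of Hepa-1c1c7 cells were analysed from 3 deposited region lists, 1 for each of 0.1, 0.5 and 1 µM potassium chromate at 72 h. Per the labels' protocols, transposition lasted 30 minutes and libraries had 9 PCR cycles. The submitters' processing notes name Bowtie2, Picard, MACS2 and mm10, with no version or role; pooling, threshold, duplicate removal and the Tn5 shift are not stated there. The names of the lists hold a q tag and the words filtered and unique, which no source explains. The authors deposited a score per region, a whole number of at least 4; its scale is not stated, and it was used only to describe and rank regions. Depth per library is unknown. The members, gene lists, named-gene rule and tests were chosen with earlier results of these data known. Regions sharing at least 1 bp were merged, so touching regions stay apart. Genes came from RefSeq's table of GRCm38.p6, starts from its 300-base windows, and the 632 gene-list entries all matched. Shares were compared by Fisher's exact test (scipy 1.17.1, two-sided) with Benjamini-Hochberg adjustment and a threshold of 0.05; intervals of differences are normal approximations to the 2 binomial shares. The named regions are the 10 of highest score (ties by width), the 10 widest, those at ends of list genes, the 5 densest windows and the genes holding most regions; promoters were up to 8 by score. Calculations were tested on simulated data. Alternatives covered merging distance, score, width, gene-end distance and gene type. Some single genes counted in the lists are not reported here. No library could be left out, since no list is of 1 library.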

Additional observations from a re-analysis of the deposited data

How the results depend on the processing

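The number of regions listed only at 1 µM was 3342. It was 3213, 2895 and 2746 with regions up to 100, 500 and 1000 bp apart merged, 4368 with a reciprocal overlap of 50% needed to share a region, 4060 with chromosome 15, and 2599 with regions of score 10 or more in every list. Of the 3342, 1119 had a score of 10 or more. Of the 20 regions named for score or width, 13 were still listed only at 1 µM with merging up to 1000 bp.

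Of 81 location differences under alternatives, 67 kept their direction and side of the threshold, 11 fell below it, 3 passed it and none reversed. Against regions listed at all doses, those under 250 bp differed by -4.06 points at gene ends, 2.55 inside genes and 1.51 between genes, and those of 250 to under 500 bp by 2.84 inside and 0.766 between. At 500 bp or more the difference between genes was 2.28 from all doses and -14.9 from 0.1 µM alone, and at gene ends 3.91 from 0.1 µM alone and -17.1 from 0.5 µM alone; only 85 of the 3342 regions are so wide. At gene ends the difference from 0.5 µM alone was -2.97 under 250 bp and -3.13 with genes of every type. Between genes it passed the threshold at 7.98 for regions above the median score of their group, and at 4.04 and 4.28 with merging up to 500 and 1000 bp. Over start windows, 9 of 12 alternatives, all chosen after seeing the data, kept the call: the difference from 0.5 µM alone passed at -7.60 above the median score and at -4.28 for 250 to under 500 bp, and that from all doses was -3.11 under 250 bp. The causes were not tested.

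Above the median score, where fewer regions were compared, 2 chromosomes differed from 0.1 µM alone and 3 from 0.5 µM alone. Counting the gene body and 10 kb either side, 2636 genes had such a region in place of 933. No paired analysis was possible because each dose has 1 list for both of its libraries.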

Other observations

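Beyond the densest windows, a window at chr7:27000001-27500000 with the Cyp2a12 and Cyp2f2 cytochrome P450 genes, Egln2, an oxygen-sensing prolyl hydroxylase, and Blvrb, biliverdin reductase B, held 8 regions listed only at 1 µM, 6 of them at gene ends. It held 1 region listed only at 0.5 µM and none listed only at 0.1 µM. A window at chr1:131000001-131500000 with Il10, Mapkapk2 and Ikbke also held 8, with scores of 4 to 18, and no region listed only at 0.1 or only at 0.5 µM. The 2 windows held 18 and 12 regions of the 1 µM list in all. Both windows were chosen after their values were seen and were not tested.

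Mir7238, on chromosome 8, was the other miRNA gene whose hairpin a region listed only at 1 µM touched, in a RefSeq table that holds none of chromosome 18; the region had a score of 5.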
